A study of Mus musculus with 24 samples.

Results

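The guidance genes described here encode the semaphorins and their plexin and neuropilin receptors, the ephrins and their Eph receptors, the Slits and their Robo receptors, and the netrins with their receptors. They were taken by gene symbol alone: classes 3 to 7 of the semaphorins, every plexin, both neuropilins, the Eph receptors and ephrins of the A and B classes, Slit1 to Slit3, Robo1 to Robo4, Ntn1 to Ntn5, every symbol that begins with Unc5, and Dcc and Neo1. This gave 71 of the 19937 genes measured: 20 semaphorins, 11 plexins and neuropilins, 13 Eph receptors, 8 ephrins, 3 Slits, 4 Robos, 4 netrins, 6 netrin receptors, and Unc50 and Unc5cl, which share the Unc5 prefix but are not netrin receptors. Ephb2 was not among the genes measured, so the Eph receptors here are not the whole family. Each gene is given by 1 probe set, that of the highest mean over the 24 arrays where there was a choice, as for Epha10, Ephb1, Sema4d and Unc5d.

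The 24 arrays measured RNA of mammary epithelial cells sorted from mice on a mixed FVB/C57BL6 background. Mutant mice carried Lgr5-creERT2, a tamoxifen-inducible Cre recombinase expressed from the Lgr5 locus, together with the transgene PIK3CA H1047R, an activated form of the catalytic subunit of phosphoinositide 3-kinase. Control mice carried Lgr5-creERT2 alone, so the Cre driver was common to all groups, and mice of both genotypes were studied 4 weeks after tamoxifen. CD45-negative cells, that is, cells lacking the leukocyte antigen, were divided into a luminal gate (high CD24), split into Sca1-positive and Sca1-negative cells, and a basal gate (low CD24, Sca1-negative), split by the green fluorescent protein GFP. The 8 groups of 3 arrays each were therefore mutant and control luminal Sca1-positive cells, mutant and control luminal Sca1-negative cells, mutant and control basal GFP-positive cells, and mutant and control basal GFP-negative cells. Each array came from a pool of 2 to 3 mice whose estrus had been synchronised, in 1 of 3 separate sorts, and from the amplified RNA of 250 cells. GFP does not mark the same cells in both genotypes: it marks Lgr5-expressing cells in controls, and cells expressing Lgr5, the transgene or both in mutants. The mutant luminal cells were sorted as GFP-positive and the control luminal cells were not, so genotype and GFP state cannot be told apart in the luminal comparisons. In basal GFP-positive cells, genotype and the kind of cell that GFP marks cannot be told apart either.

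Semaphorins, ephrins, Slits and netrins were first known as cues that attract or repel growing axons, and they act on many other cells by way of receptors that rearrange the actin cytoskeleton and cell adhesion. Plexins bind semaphorins, with neuropilins as co-receptors for most secreted ones, Eph receptor tyrosine kinases bind membrane-tethered ephrins on neighbouring cells, Robos bind secreted Slits, and Dcc, neogenin and the Unc5 proteins bind netrins. In the mouse mammary gland, netrin-1 with neogenin and the Slits with Robo1 are known for their part in holding the luminal and basal layers of the duct together, and Epha2 for its part in branching of the duct.

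RefSeq promoters, 300 bases from 250 before to 50 after the transcription start, were found for 61 of the 71 genes, as 77 promoters. Those of 4 genes on which the results below turn are printed 5′ to 3′ on the coding strand, in build GRCm38.p6: Plxna2 and Efnb2, which were higher in mutant basal GFP-positive cells, Sema3c, which was high in basal cells, and Epha2, which was high in luminal cells. Capitals mark GC boxes, written GGGCGG or CCGCCC, the letters bound by factors of the Sp family.
Plxna2: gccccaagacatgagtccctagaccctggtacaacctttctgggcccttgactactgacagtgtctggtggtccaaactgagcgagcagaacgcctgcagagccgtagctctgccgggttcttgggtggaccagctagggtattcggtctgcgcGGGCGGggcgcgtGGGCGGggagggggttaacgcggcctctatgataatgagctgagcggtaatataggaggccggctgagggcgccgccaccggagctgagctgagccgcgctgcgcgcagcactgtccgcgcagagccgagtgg
Efnb2: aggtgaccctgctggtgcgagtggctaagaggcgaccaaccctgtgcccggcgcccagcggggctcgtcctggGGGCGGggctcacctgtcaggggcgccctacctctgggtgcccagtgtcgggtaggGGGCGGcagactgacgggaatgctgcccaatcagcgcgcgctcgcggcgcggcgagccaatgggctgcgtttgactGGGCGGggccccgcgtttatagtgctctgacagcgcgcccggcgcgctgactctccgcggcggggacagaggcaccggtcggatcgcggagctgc
Sema3c: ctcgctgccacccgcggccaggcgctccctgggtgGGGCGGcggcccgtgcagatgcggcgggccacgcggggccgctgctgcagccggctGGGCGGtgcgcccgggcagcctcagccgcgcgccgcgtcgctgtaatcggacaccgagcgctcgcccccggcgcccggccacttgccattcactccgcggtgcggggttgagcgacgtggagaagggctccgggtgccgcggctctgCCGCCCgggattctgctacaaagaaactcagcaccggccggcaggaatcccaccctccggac
Epha2: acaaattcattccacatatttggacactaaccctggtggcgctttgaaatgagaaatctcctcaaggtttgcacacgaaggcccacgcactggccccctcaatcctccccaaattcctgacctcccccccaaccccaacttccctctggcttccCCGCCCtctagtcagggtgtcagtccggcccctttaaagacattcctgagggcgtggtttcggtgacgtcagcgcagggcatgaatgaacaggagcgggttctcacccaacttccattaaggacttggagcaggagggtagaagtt
The Plxna2 promoter lies at chr1:194619579-194619878 on the plus strand and is 64.7% G and C. The Efnb2 promoter lies at chr8:8661193-8661492 on the minus strand and is 72.3% G and C. The Sema3c promoter lies at chr5:17574566-17574865 on the plus strand and is 75.7% G and C, and the Epha2 promoter lies at chr4:141300971-141301270 on the plus strand and is 54.7% G and C. On either strand, a GC box was found in 72.7% of the guidance gene promoters and in 35.7% of the 32851 mouse promoters of the same length. The motif GTAAACA, the core bound by FOXO factors, which act downstream of phosphoinositide 3-kinase, was found in none of the guidance gene promoters and in 3.65% of all promoters. CTTTGNT, the core of the TCF and LEF factors of Wnt signalling, was found in 10.4% of the guidance gene promoters and 18.6% of all promoters, and CCGGAAG, an ETS motif, in 3.9% and 8.86%. None of these 3 motifs was in the promoters printed above. Over all promoters the median was 52.7% G and C, and the part of base composition in these shares was not tested. These are matches of letters only.

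Values are log2 signals, and a difference of 1 is a 2-fold change. A gene was taken as above background in a group where its mean exceeded the 95th percentile of 1207 olfactory, vomeronasal and trace amine receptor genes, a level of 4.20 to 4.39 by group. A change was called at an adjusted p under 0.05 in limma after Benjamini-Hochberg adjustment over all 19937 genes. Array medians ran from 4.39 to 4.55, and arrays of a group correlated at 0.934 to 0.979. Replicates 1 and 3 of the control basal GFP-positive cells had the lowest SDs over genes, 1.86 and 1.83, while replicate 2 (1.89) lay with the arrays of the other 7 groups (1.89 to 1.99). Those same replicates had the highest means over dim genes, 4.08 and 4.11, against 4.03 in replicate 2. By group the mean over dim genes was 3.94 in mutant basal GFP-positive cells and 4.07 in their controls. The sorted populations carried their markers: a list of 6 basal genes averaged 10.81 to 11.20 in basal groups, and 5 luminal genes averaged 11.36 to 11.56 in luminal groups. The defining markers of endothelium and leukocytes were low, with group means of 4.02 to 4.25 for 10 endothelial genes and 4.25 to 4.50 for 9 leukocyte genes. Those of 6 pericyte genes (4.24 to 4.43) and 5 adipocyte genes (4.18 to 4.56) were low too, and 6 nerve and Schwann cell genes averaged 4.87 to 5.71. Of the endothelial genes, Pecam1 was 6.25 in control luminal Sca1-positive replicate 3, against 4.09 and 4.20 in replicates 1 and 2. Since each value comes from sorted cells in bulk, fewer cells of a type and less RNA per cell cannot be told apart.

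Of the 71 genes, 58 were above background in at least 1 group, 36 were in all 8, and 13 were in none. By group, 57.7% to 73.2% of the guidance genes were above background, against 59.5% to 62.5% of all genes. The families differed in this: 18 of 20 semaphorins, 8 of 11 plexins and neuropilins, 10 of 13 Eph receptors, 7 of 8 ephrins, 3 of 3 Slits, 2 of 4 Robos, 4 of 4 netrins and 4 of 6 netrin receptors were above background somewhere. Both Robo3 and Robo4, and the neuropilin Nrp1, a co-receptor of secreted semaphorins, were among the 13 never above background. The others were Efnb3, Epha3, Epha5, Epha6, Plxnb3, Plxnc1, Sema3a, Sema3d, Unc5a and Unc5c. Over the 12 comparisons between groups, 35 genes were called at least once and 36 were called in none. The matching counts over all genes are not given here, so these counts do not set the guidance genes apart. The differences between group means were widest for Sema3c, with a range of 4.90, and Sema6d, with 4.88, and narrowest for Plxnc1, with 0.14. Those called in any comparison included 10 semaphorins, 6 plexins and neuropilins, 6 Eph receptors, 4 ephrins, 2 Slits, 3 Robos, 2 netrins and 2 netrin receptors.

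**Figure D1:**
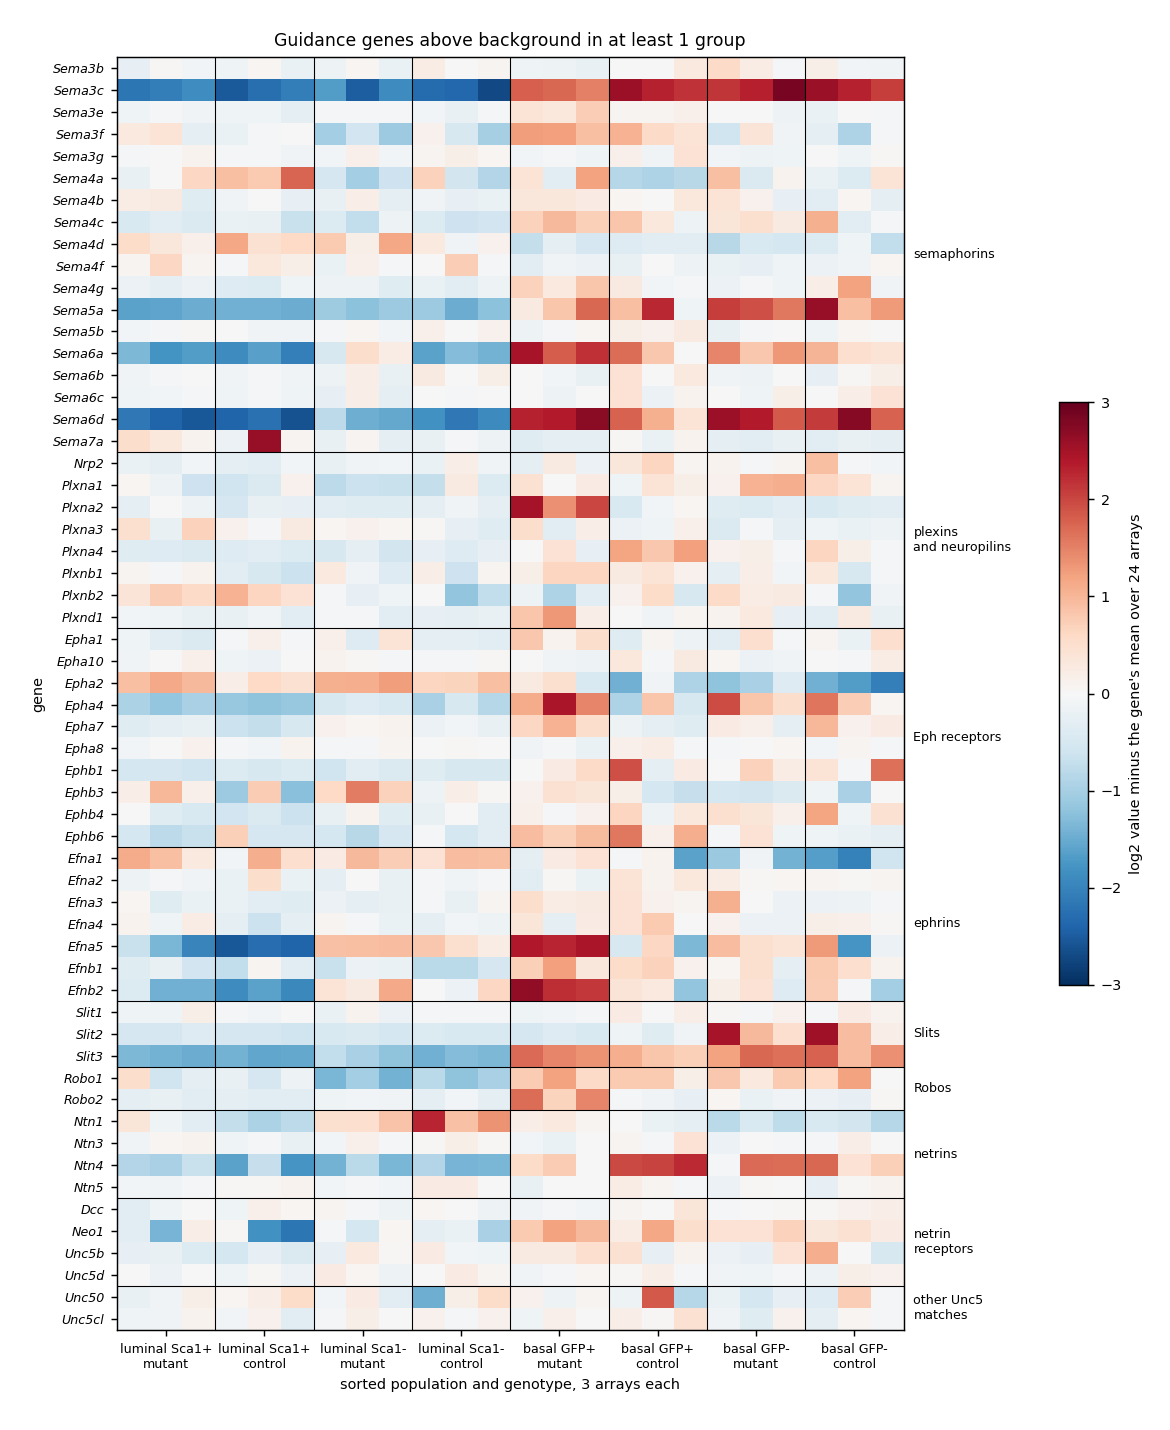
Log2 value minus the gene's own mean over 24 arrays (colour, scale of −3 to 3) for the 58 guidance genes above background in at least 1 group (rows) in each array (columns, by group). Sema3c, Sema6d and Slit3 are low in all 12 luminal arrays and high in all 12 basal arrays, and Plxna2 and Robo2 are high in the 3 mutant basal GFP-positive arrays.

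The first question was how luminal and basal cells differed. In control mice, luminal Sca1-negative cells had 15 guidance genes called against basal GFP-negative cells, 3 higher and 12 lower, against 9.83% of all genes called (4.93% higher and 4.9% lower). Luminal Sca1-positive cells of control mice had 20 called against the same basal cells, 4 higher and 16 lower, against 13.1% of all genes (7.35% higher and 5.77% lower). The lower genes included the semaphorins Sema3c, Sema5a, Sema6a and Sema6d and the ligands Slit2 and Slit3, and the higher ones included the receptor Epha2 and its main ligand Efna1. The median difference over the 71 genes was −0.04 in Sca1-negative cells, against 0.02 over all genes, and −0.14 in Sca1-positive cells, against −0.03. Both comparisons use the same 3 basal arrays.

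Among the ligands, Sema3c, a secreted semaphorin, had values of 4.37, 4.30 and 3.96 in control luminal Sca1-negative arrays and 4.16, 4.41 and 4.59 in Sca1-positive arrays, against 9.26, 8.98 and 8.75 in control basal GFP-negative arrays. The groups lay far apart, and Sca1-negative cells were not above background. The difference was −4.78 ± 0.21 (SE, adjusted p = 2.91e-11, limma) in Sca1-negative cells and −4.61 ± 0.21 (adjusted p = 2.75e-11) in Sca1-positive cells. Where one group is not above background, a fold is given as a lower bound, as the mean of the brighter group over the mean of, per array, the higher of the background level and the gene's own value. On that basis Sema3c was at least 24.9-fold lower in luminal Sca1-negative cells. Sema6d, a transmembrane semaphorin that binds Plxna1, had values of 4.70, 4.36 and 4.59 in luminal Sca1-negative arrays and 4.11, 4.26 and 3.91 in Sca1-positive arrays, against 8.60, 9.23 and 8.27 in basal ones. No luminal array came near a basal array, and Sema6d was at least 21.6-fold lower in Sca1-positive cells, where it was not above background (adjusted p = 3.59e-09, limma). Sema5a, a transmembrane semaphorin with thrombospondin repeats, had values of 4.63, 4.23 and 4.49 in Sca1-negative arrays and 4.27, 4.27 and 4.23 in Sca1-positive arrays, against 8.33, 6.63 and 7.01 in basal ones. Its differences were −2.87 ± 0.47 (SE, adjusted p = 0.000377, limma) and −3.06 ± 0.47 (adjusted p = 0.000134), with no overlap. Sema6a, a transmembrane ligand of Plxna2 and Plxna4, averaged 5.42 and 5.02 in the same luminal groups, against 7.51 ± 0.32 (SD, n = 3) in basal cells, and its 2 differences, −2.09 and −2.50, were both called.

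Slit3, a secreted Robo ligand, had values of 4.57, 4.71 and 4.66 in control luminal Sca1-negative arrays, against 7.78, 6.93 and 7.38 in control basal GFP-negative arrays. The groups did not overlap, with a difference of −2.72 ± 0.18 (SE, adjusted p = 6.01e-09, limma), and one of −2.86 ± 0.18 (adjusted p = 2.25e-09) in Sca1-positive cells. Its relative Slit2 had values of 3.89, 3.84 and 3.85 in luminal Sca1-negative arrays, none above background, against 6.84, 5.22 and 4.50 in basal GFP-negative arrays. The basal arrays were all higher but spread widely. Slit2 was at least 2.25-fold lower (adjusted p = 0.0203), and the call was lost without control basal GFP-negative replicate 1 (difference −1.0, adjusted p = 0.106), and without luminal Sca1-negative replicate 1 (adjusted p = 0.0503), 2 (0.0591) or 3 (0.056). Robo1, the receptor of both, had values of 5.08, 4.69 and 4.92 in luminal Sca1-negative cells, against 6.49, 7.11 and 5.92 in basal cells, a difference of −1.61 ± 0.29 (adjusted p = 0.0011). Ntn4, a netrin of basement membranes, averaged 5.53 ± 0.29 in luminal Sca1-negative cells and 7.70 ± 0.67 in basal cells (SD, n = 3 each), a difference of −2.17 ± 0.41 (SE, adjusted p = 0.00154), and no luminal array reached a basal one.

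The genes higher in luminal cells were fewer. Epha2, a receptor for ephrin-A ligands, had values of 9.25, 9.26 and 9.51 in control luminal Sca1-negative arrays and 8.81, 9.20 and 9.06 in Sca1-positive arrays, against 7.16, 6.93 and 6.54 in control basal GFP-negative arrays. Every luminal array was above every one of these basal arrays, by 2.47 ± 0.28 (SE, adjusted p = 8.23e-06, limma) in Sca1-negative cells and 2.15 ± 0.28 (adjusted p = 2.7e-05) in Sca1-positive cells. Efna1 had values of 8.17, 8.66 and 8.62 in luminal Sca1-negative arrays and 7.66, 8.83 and 8.24 in Sca1-positive arrays, against 6.08, 5.71 and 7.14 in basal ones. These groups did not overlap either, with differences of 2.17 ± 0.46 (adjusted p = 0.00417) and 1.93 ± 0.46 (adjusted p = 0.00758). Ntn1, the best known netrin, was higher in Sca1-negative luminal cells. It had values of 8.41, 7.01 and 7.48 in luminal Sca1-negative arrays, against 5.67, 5.57 and 5.26 in basal arrays, a difference of 2.13 ± 0.25 (adjusted p = 1.03e-05), and 5.42, 5.19 and 5.34 in luminal Sca1-positive arrays. The semaphorin Sema4d, a ligand of Plxnb1, was called higher in Sca1-positive cells, at 5.73 against 4.57 in basal cells (difference 1.16 ± 0.22, adjusted p = 0.00126), and the mean of its probe sets was not called in mutant Sca1-positive cells (0.33, adjusted p = 0.158). Plxnb2, a receptor of class 4 semaphorins, averaged 8.62 in Sca1-positive cells and 7.47 in basal cells (difference 1.15 ± 0.32, adjusted p = 0.0228), a call lost without control basal GFP-negative replicate 2 (0.78, adjusted p = 0.139) or Sca1-positive replicate 1 (0.98, 0.101) or 2 (1.18, 0.053).

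In control luminal Sca1-negative cells, Epha4, a receptor that binds ephrins of both classes, Efnb1, a transmembrane ephrin, Epha7, a receptor for ephrin-A ligands, and Plxna4, a class A plexin, were lower than in basal GFP-negative cells, with differences of −0.54 to −1.58. In control Sca1-positive cells, Efna5, Efnb2, Epha4, Epha7, Ephb4 (a receptor of Efnb2), Sema4g, Plxna4 and Robo3 were lower, with differences of −0.26 to −2.19, and Robo3 was not above background in either group. With each array left out in turn, 11 of the 15 calls in Sca1-negative cells and 12 of the 20 in Sca1-positive cells were kept, Sema3c, Sema5a, Sema6a, Sema6d, Slit3, Ntn4, Epha2 and Efna1 among both. In Sca1-negative cells, Epha4 (adjusted p up to 0.152), Epha7 (up to 0.193) and Plxna4 (up to 0.253) lost theirs, each at its highest p without control basal GFP-negative replicate 1. In Sca1-positive cells, Efna5 (−1.43, adjusted p = 0.0604), Efnb2 (−1.27, 0.0851) and Slit2 (−1.09, 0.0534) lost theirs without that same array, and Plxna4, Robo3 and Sema4g also lost theirs when 1 array was left out (adjusted p up to 0.145).

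**Figure D2:**
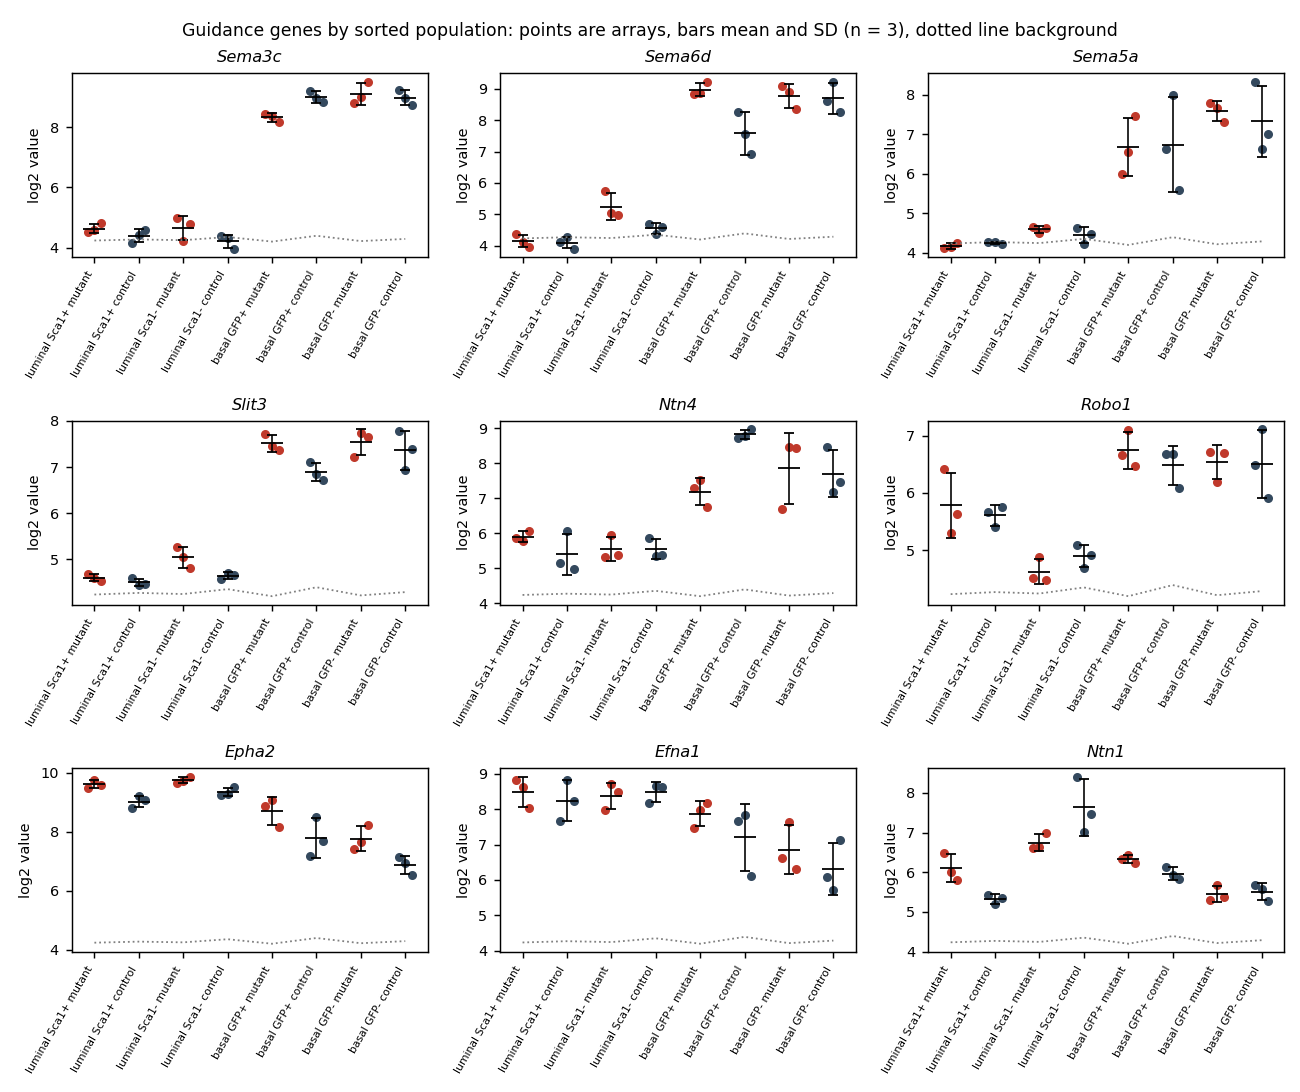
Log2 value in each array (dots), with group mean and SD (bars, n = 3), for 9 guidance genes in the 8 groups, mutant in red and control in dark, with the background level of each group dotted. Sema3c, Sema6d, Sema5a, Slit3, Ntn4 and Robo1 are higher in basal groups, Epha2 is higher in luminal groups, and Ntn1 is highest in control luminal Sca1-negative cells, at 8.41, 7.01 and 7.48.

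In mutant mice, luminal cells were set against basal GFP-positive cells, the cells labelled as expressing Lgr5, the transgene or both. Luminal Sca1-negative cells had 22 guidance genes called, 2 higher and 20 lower, against 7.86% of all genes called (3.62% higher and 4.24% lower). Luminal Sca1-positive cells also had 22 called, 1 higher and 21 lower, against 9.72% of all genes (4.73% higher and 4.99% lower). The medians over the 71 genes were −0.07 and −0.06, against 0.03 and 0.04 over all genes. Semaphorins made up 8 of the lower calls in each comparison. Plxna2, Plxnd1, Robo2, Sema3e, Sema3f, Sema4c and Ephb6 were called in both of these and in neither control comparison, and whether their differences differ between the genotypes was not tested. The mutant comparisons use GFP-positive basal cells and the control ones GFP-negative basal cells, so they differ in the basal gate as well as in genotype.

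Sema3c had values of 5.0, 4.20 and 4.77 in mutant luminal Sca1-negative arrays and 4.50, 4.59 and 4.81 in Sca1-positive arrays, against 8.45, 8.39 and 8.18 in mutant GFP-positive basal arrays. The gap between the layers was wide in mutant mice too, at −3.68 ± 0.21 (SE, adjusted p = 9.83e-10, limma) and −3.71 ± 0.21 (adjusted p = 4.97e-10). Sema3f, a secreted ligand of Nrp2, had values of 5.94, 6.38 and 5.85 in Sca1-negative arrays and 7.24, 7.35 and 6.65 in Sca1-positive arrays, against 8.21, 8.19 and 7.86 in basal GFP-positive arrays. Sca1-negative cells were lowest, with a difference of −2.03 ± 0.30 (adjusted p = 0.000131). The call in Sca1-positive cells (−1.01) was lost without basal GFP-positive replicate 1 (−0.95, adjusted p = 0.123), 2 (−0.95, 0.117) or 3 (−1.12, 0.0528), or Sca1-positive replicate 1 (−1.08, 0.0591) or 3 (−0.79, 0.194). Ephb6, an Eph receptor without kinase activity, had values of 4.85, 4.56 and 4.89 in Sca1-negative arrays and 4.85, 4.59 and 4.72 in Sca1-positive arrays, against 6.30, 6.11 and 6.33 in basal GFP-positive arrays. The groups did not overlap, and the differences were −1.48 ± 0.31 (adjusted p = 0.00405) and −1.53 ± 0.31 (adjusted p = 0.00245). Sema4c, a ligand of Plxnb2, had differences of −1.22 ± 0.28 (adjusted p = 0.00764) and −1.19 ± 0.28 (adjusted p = 0.00734).

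The largest differences in mutant Sca1-positive cells were those of Sema6d (−4.82 ± 0.30, SE, adjusted p = 2.24e-09, limma), Sema6a (−3.76 ± 0.33, 1.99e-07) and Efna5 (−3.72 ± 0.55, 0.000103). Sema6d had values of 4.37, 4.10 and 3.97 in Sca1-positive arrays and 5.73, 5.04 and 4.97 in Sca1-negative arrays, against 8.82, 8.88 and 9.21 in basal GFP-positive arrays, and no luminal array came near a basal one. Slit3 differed by −2.47 ± 0.18 (adjusted p = 2.62e-08) in Sca1-negative and −2.91 ± 0.18 (adjusted p = 1.93e-09) in Sca1-positive cells, and its receptor Robo1 by −2.12 ± 0.29 (adjusted p = 6.69e-05) and −0.96 ± 0.29 (adjusted p = 0.0446). Plxna2 differed by −2.32 ± 0.19 and −2.10 ± 0.19, and Efnb2 by −1.73 ± 0.45 and −3.44 ± 0.45. The remaining lower calls lay between −0.54 and −2.71. They were those of Efnb1, Plxnd1, Sema4g, Sema3e, Epha4, Epha7, Sema5a and Robo2 in both comparisons, of Ntn4, Plxna1 and Sema6a in Sca1-negative cells, and of Neo1 and Epha1 in Sca1-positive cells. Sema3e was not above background in either luminal group. It was at least 1.06-fold lower in Sca1-negative cells and at least 1.07-fold lower in Sca1-positive cells. With each array left out in turn, 13 of the 22 calls in Sca1-negative cells and 16 of the 22 in Sca1-positive cells were kept. Those of Sema3c, Sema6a, Sema6d, Slit3, Sema3e, Sema4c, Plxna2, Robo2, Epha4 and Ephb6 were kept in both. Lost in Sca1-negative cells were Efnb1, Efnb2, Epha7, Ntn4, Plxna1, Plxnd1, Sema4g and Sema5a, with adjusted p of 0.0517 to 0.192, and in Sca1-positive cells Epha1, Neo1, Robo1, Sema4d and Sema4g, with 0.0517 to 0.231.

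On the luminal side of mutant mice, Epha2 had values of 9.66, 9.71 and 9.87 in mutant luminal Sca1-negative arrays, against 8.87, 9.09 and 8.16 in mutant GFP-positive basal arrays. The groups did not overlap. The call (1.04 ± 0.28, SE, adjusted p = 0.0281, limma) was lost without basal GFP-positive replicate 1 (1.12, adjusted p = 0.0505) or 3 (0.77, 0.177), or without luminal replicate 1 (1.08, 0.0618), 2 (1.06, 0.0692) or 3 (0.98, 0.101). Sema4d averaged 5.69 in Sca1-negative and 5.34 in Sca1-positive luminal cells, against 4.49 in basal GFP-positive cells, with adjusted p of 0.00137 and 0.0178.

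Across all 4 comparisons of luminal with basal cells, 7 genes were lower in luminal cells each time: Epha4, Epha7, Sema3c, Sema5a, Sema6a, Sema6d and Slit3. None was higher in all 4. The pairs of comparisons within a genotype share basal arrays, and the matching counts over all genes are not given here. Epha4 was at least 2.75-fold and 3.09-fold lower in control Sca1-negative and Sca1-positive luminal cells and at least 5.82-fold lower in mutant Sca1-positive cells, with luminal means at or near background. Neo1, which encodes neogenin, was well above background everywhere. It had values of 8.54, 6.69 and 6.34 in control luminal Sca1-positive arrays, against 8.83, 8.96 and 8.75 in control basal GFP-negative arrays. Of the Sca1-positive arrays, 1 lay close to the basal arrays and 2 lay well below them. Its call (−1.66 ± 0.45, adjusted p = 0.0178) was lost without Sca1-positive replicate 2 (−1.41, adjusted p = 0.0898) or 3 (−1.23, 0.111), or basal replicate 2 (−1.60, 0.0571).

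**Figure D3:**
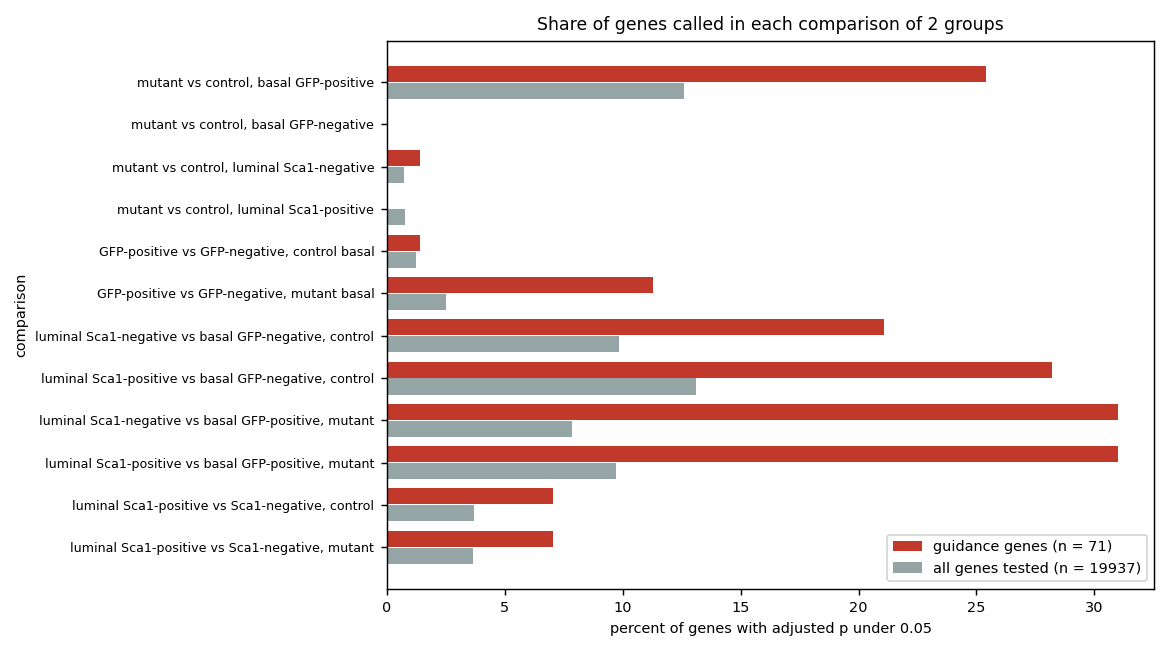
Percentage of the 71 guidance genes and of all 19937 genes called at an adjusted p under 0.05 in each of the 12 comparisons between groups. The guidance genes stand at 31% in each mutant luminal comparison, where 7.86% and 9.72% of all genes were called, and at 25.4% between mutant and control basal GFP-positive cells, where 12.6% of all genes were called.

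The second question was how mutant and control cells of each population differed. In basal GFP-positive cells, 18 guidance genes were called between mutant and control, 12 higher and 6 lower, against 12.6% of all genes called (4.74% higher and 7.81% lower). The genes that rose included the plexin Plxna2, the ephrins Efnb2 and Efna5, the receptors Epha2, Epha4, Epha7 and Robo2, and the semaphorins Sema6a and Sema6d. Those that fell included Ntn4, Plxna4 and Sema3c. The median over the 71 genes was −0.10, as it was over all genes. By family, 3 Eph receptors and 2 ephrins rose and none fell, 3 semaphorins rose and 2 fell, 2 plexins rose and 2 fell, 1 Slit and 1 Robo rose, and 1 netrin and 1 netrin receptor fell.

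Plxna2, a receptor of class 6 semaphorins, had values of 7.17, 6.06 and 6.68 in mutant basal GFP-positive arrays, against 4.22, 4.60 and 4.75 in control basal GFP-positive arrays. The mutant arrays were all higher, and no array of the other 7 groups exceeded 4.75. The difference was 2.11 ± 0.19 (SE, adjusted p = 1.23e-06, limma). Efnb2, a transmembrane ephrin that binds Ephb4, had values of 9.38, 8.93 and 8.84 in mutant arrays, against 7.09, 7.01 and 5.52 in control arrays. The groups lay apart by 2.51 ± 0.45 (adjusted p = 0.00226). Efna5, an ephrin anchored in the membrane by a lipid, had values of 9.11, 8.98 and 9.15 in mutant arrays, against 6.23, 7.32 and 5.35 in control arrays. The mutant arrays were close together and the control arrays spread widely, with a difference of 2.78 ± 0.55 (adjusted p = 0.00454). Robo2, a Slit receptor, had values of 5.95, 4.95 and 5.75 in mutant arrays, against 4.23, 4.17 and 4.04 in control arrays, which were not above background. Mutant basal GFP-positive cells were the only group with Robo2 above background, and it was at least 2.23-fold higher in them (adjusted p = 4.61e-05).

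Sema6d had values of 8.82, 8.88 and 9.21 in mutant arrays, against 8.28, 7.57 and 6.92 in control arrays, a difference of 1.38 ± 0.30 (SE, adjusted p = 0.00837, limma). Epha7 had values of 5.0, 5.42 and 4.89 in mutant arrays, against 4.23, 4.10 and 4.01 in control arrays, which were not above background. It was at least 1.64-fold higher in mutant cells (adjusted p = 0.00266), and neither gene had overlapping groups. Plxna4 fell, with values of 4.82, 5.28 and 4.58 in mutant arrays, against 6.02, 5.64 and 6.07 in control arrays, a difference of −1.02 ± 0.17 (adjusted p = 0.00112). Control basal GFP-positive cells had the highest mean of all 8 groups for Plxna4. Ntn4 had values of 7.30, 7.51 and 6.75 in mutant arrays, against 8.73, 8.78 and 8.98 in control arrays, and the difference was −1.64 ± 0.41 (adjusted p = 0.0178). The call for Ntn4 was lost without mutant replicate 3 (−1.42, adjusted p = 0.0667) or control replicate 3 (−1.57, 0.0605).

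Epha4 had values of 6.21, 7.55 and 6.57 in mutant arrays, against 4.17, 5.93 and 4.62 in control arrays, a difference of 1.87 ± 0.44 (SE, adjusted p = 0.014, limma). Sema3c, in contrast, had values of 8.45, 8.39 and 8.18 in mutant arrays, against 9.23, 8.98 and 8.83 in control arrays, a difference of −0.67 ± 0.21 (adjusted p = 0.0424). In neither gene did the groups overlap. Of the others that rose, Sema6a averaged 9.03 ± 0.33 in mutant and 7.70 ± 0.84 in control cells (SD, n = 3 each, difference 1.33 ± 0.33, SE, adjusted p = 0.0172), and Epha2 averaged 8.71 ± 0.49 and 7.78 ± 0.67 (0.93 ± 0.28, 0.0417). The Epha2 arrays of the groups overlapped, and those of the other 17 called genes did not. A call rests on the same difference, so the lack of overlap adds no support. Some genes that were not called, such as Sema4g, Ntn1 and Epha1, did not overlap either. Plxnd1, the receptor of Sema3e, averaged 5.50 ± 0.56 in mutant and 4.72 ± 0.10 in control cells, and Sema3e itself averaged 4.32 and 3.95, above background only in mutant cells. That mutant mean of Sema3e passed the background of its own group (4.20) but not that of the controls (4.39). No lower bound of its fold can therefore be given. Slit3 averaged 7.51 ± 0.18 in mutant and 6.89 ± 0.20 in control cells. Sema3d, Plxnb3 and Unc5a were called lower with neither group above background, at 3.49, 3.80 and 4.09 in mutant cells and 3.86, 4.08 and 4.33 in control cells. Sema4a, a transmembrane semaphorin, averaged 6.80 in mutant and 5.49 in control cells without being called (1.30 ± 0.43, adjusted p = 0.0531). Epha1 (0.63, adjusted p = 0.0751), Ephb3 (0.66, 0.282), Efna1 (0.67, 0.326), Efnb1 (0.30, 0.436) and Robo1 (0.26, 0.555) were not called either.

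The number called fell to 11 without mutant replicate 1 or 2 and to 10 without control replicate 3. Each of Efna5, Efnb2, Epha7, Plxna2, Plxna4, Robo2 and Sema6d kept its call with each array left out in turn, and the other 11 each lost it at least once. Among these, Sema6a lost it without mutant replicate 1 (1.17, adjusted p = 0.072) or control replicate 3 (0.91, 0.0847). Epha4 lost it without mutant replicate 2 (1.48, 0.0677), control replicate 1 (1.50, 0.0606) or control replicate 3 (1.72, 0.0549). Epha2 had adjusted p of 0.118 to 0.17 without mutant replicate 1 or 2 or control replicate 1 or 3, and Sema3c had 0.0507 to 0.132 without any 1 of the 6 arrays. When only these 6 arrays were fitted, 1 gene was called, Ntn4, and Plxna2 had an adjusted p of 0.052, Efna5 of 0.0749, Efnb2 of 0.0818 and Robo2 of 0.0901.

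**Figure D4:**
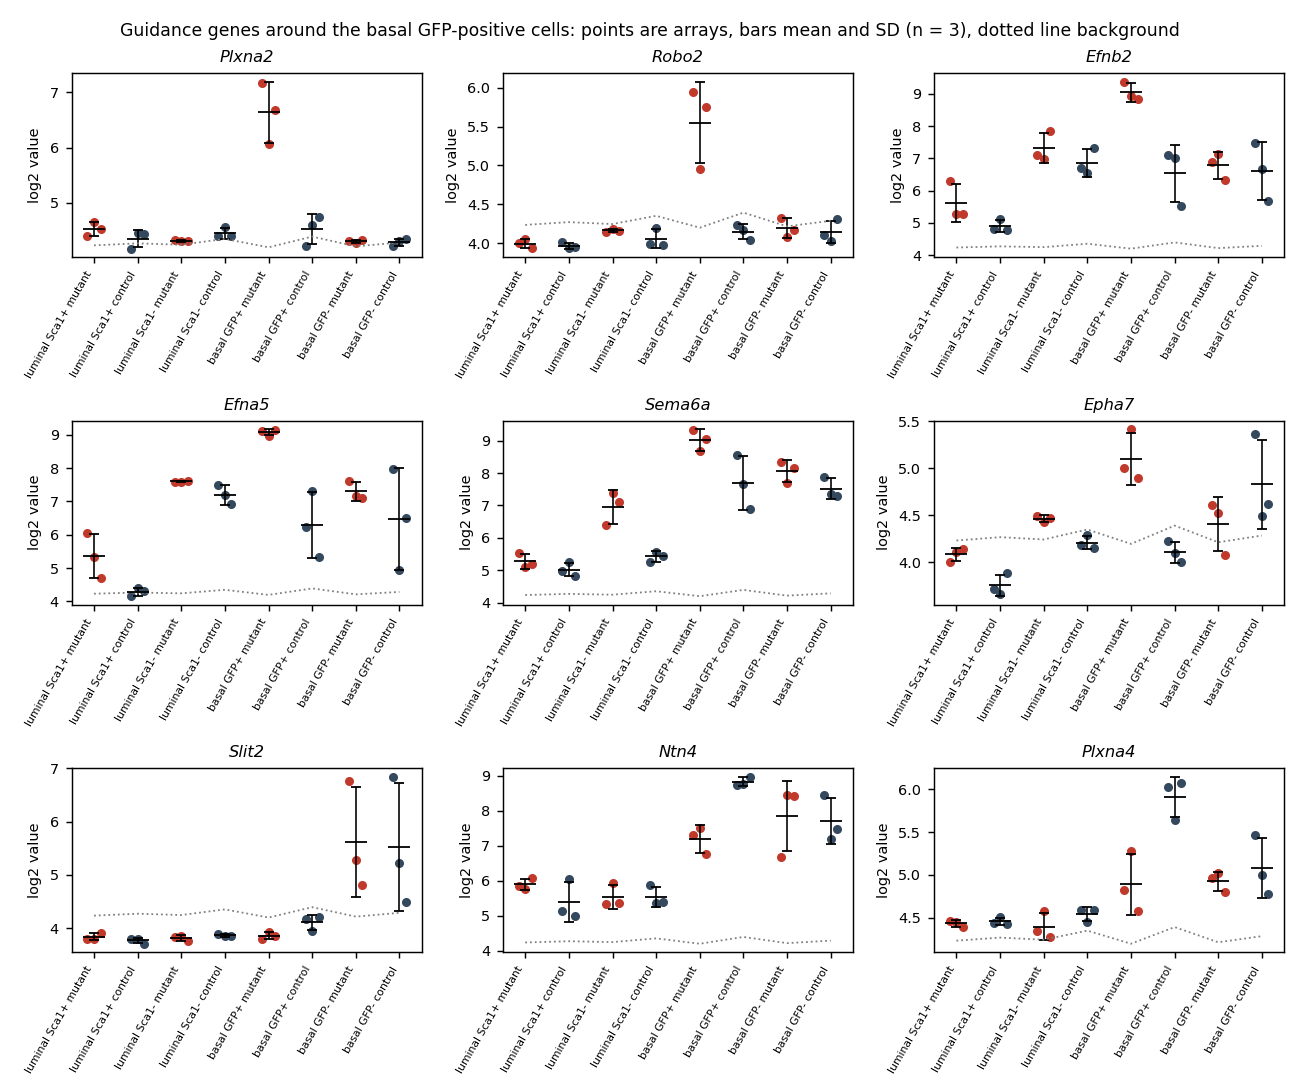
Log2 value in each array (dots), with group mean and SD (bars, n = 3), for 9 guidance genes in the 8 groups, mutant in red and control in dark, with the background level dotted. Plxna2 and Robo2 are high in mutant basal GFP-positive cells, while Ntn4 and Plxna4 have their highest means in control basal GFP-positive cells.

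Mutant basal GFP-positive cells were also set against control basal GFP-negative cells. This gave 10 called guidance genes, 9 higher and 1 lower, against 3.22% of all genes (2.29% higher and 0.928% lower), with medians of −0.02 over the guidance genes and −0.06 over all genes. The comparisons share the mutant arrays. Of the 18 genes above, 8 were called again in the same direction: Efna5 (2.60), Efnb2 (2.44), Plxna2 (2.35), Epha2 (1.83), Sema6a (1.51), Robo2 (1.40), Plxnd1 (0.88) and Sema3e (0.57). Sema3e was not above background in these controls, and its mutant mean of 4.32 lay near their background of 4.29. Against these controls Sema6d differed by 0.27 (adjusted p = 0.701), Epha7 by 0.27 (0.485), Slit3 by 0.15 (0.731), Ntn4 by −0.51 (0.572) and Plxna4 by −0.19 (0.615), none of them called. Sema3f (1.54) and Slit2 (−1.66, adjusted p = 0.0457) were called only against the GFP-negative controls.

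Other measurements moved with the same comparison. Lgr5 averaged 6.30 ± 0.90 in mutant cells and 9.47 ± 0.46 in controls (SD, n = 3 each, adjusted p = 7.95e-05, limma), and Pik3ca averaged 8.07 ± 0.31 and 6.98 ± 0.27 (adjusted p = 0.00435). A list of 4 luminal progenitor markers averaged 6.23 to 6.43 by array in mutant and 4.72 to 4.97 in control cells, with 4 of 4 and 2 of 4 above background, and Elf5 and Cd14 were called higher. A list of 8 fibroblast markers averaged 5.10 to 5.30 in mutant and 4.62 to 4.83 in control arrays, with 4 of 8 above background in each. The part of these lists, and of the array features of control replicates 1 and 3, in the guidance gene results was not tested. Not called were the basal keratins Krt5 (0.32, adjusted p = 0.625) and Krt14 (−0.21, 0.754) and the luminal keratins Krt8 (0.34, 0.269) and Krt18 (0.55, 0.282). The endothelial Pecam1 (3.99 in mutant and 4.06 in control cells) and the leukocyte antigen Ptprc (4.14 and 4.35) were not above background in either group.

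In basal GFP-negative cells, none of the 71 guidance genes was called by limma between mutant and control. Of all genes, 0.0602% were called there (0.0451% higher and 0.015% lower). An unadjusted limma p under 0.05 was found for 6 of the 71 guidance genes and for 1258 of all 19937 genes. Plxna2 differed by 0.02 ± 0.19 (SE) there, Efnb2 by 0.17 ± 0.45, Efna5 by 0.82 ± 0.55 and Robo2 by 0.05 ± 0.17. In luminal Sca1-positive cells none was called, against 0.777% of all genes (0.401% higher and 0.376% lower). Here 5 guidance genes and 1542 of all 19937 genes had an unadjusted limma p under 0.05. Ntn1 differed by 0.78 ± 0.25 in these cells (adjusted p = 0.256). Without control luminal Sca1-positive replicate 2 there was 1 call. The medians over the guidance genes were 0.02 and 0.07 in these comparisons, against −0.03 and −0.00 over all genes.

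In luminal Sca1-negative cells 1 gene was called between mutant and control, where 0.727% of all genes were called (0.557% higher and 0.171% lower), and the medians were −0.02 over the guidance genes and −0.04 over all genes. It was Sema6a, with values of 6.38, 7.39 and 7.10 in mutant arrays, against 5.26, 5.57 and 5.45 in control arrays. Every mutant array was higher, with a difference of 1.53 ± 0.33 (SE, adjusted p = 0.0334, limma). The call was lost without mutant replicate 2 (1.32, adjusted p = 0.128) or 3 (1.46, 0.12) or control replicate 1 (1.45, 0.115), 2 (1.60, 0.0642) or 3 (1.55, 0.0822). Sema6a was a gene of the basal side in every comparison of the layers, and the basal markers moved the same way here. The list of 6 basal markers averaged 6.76 to 7.43 by array in mutant cells and 5.32 to 5.52 in control cells, and Krt5 averaged 8.50 ± 0.52 and 5.21 ± 0.27 (SD, n = 3 each, adjusted p = 0.000572). The part of these markers in the Sema6a result was not tested. Another 8 guidance genes had an unadjusted limma p under 0.05 without being called. With Sema6a this made 9 guidance genes under 0.05, against 2213 of all 19937 genes. Among the 8 was Ntn1, which had 6.60, 6.63 and 6.98 in mutant arrays, against 8.41, 7.01 and 7.48 in control arrays. These values did not overlap, but the difference of −0.89 ± 0.25 was not called (adjusted p = 0.13).

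**Figure D5:**
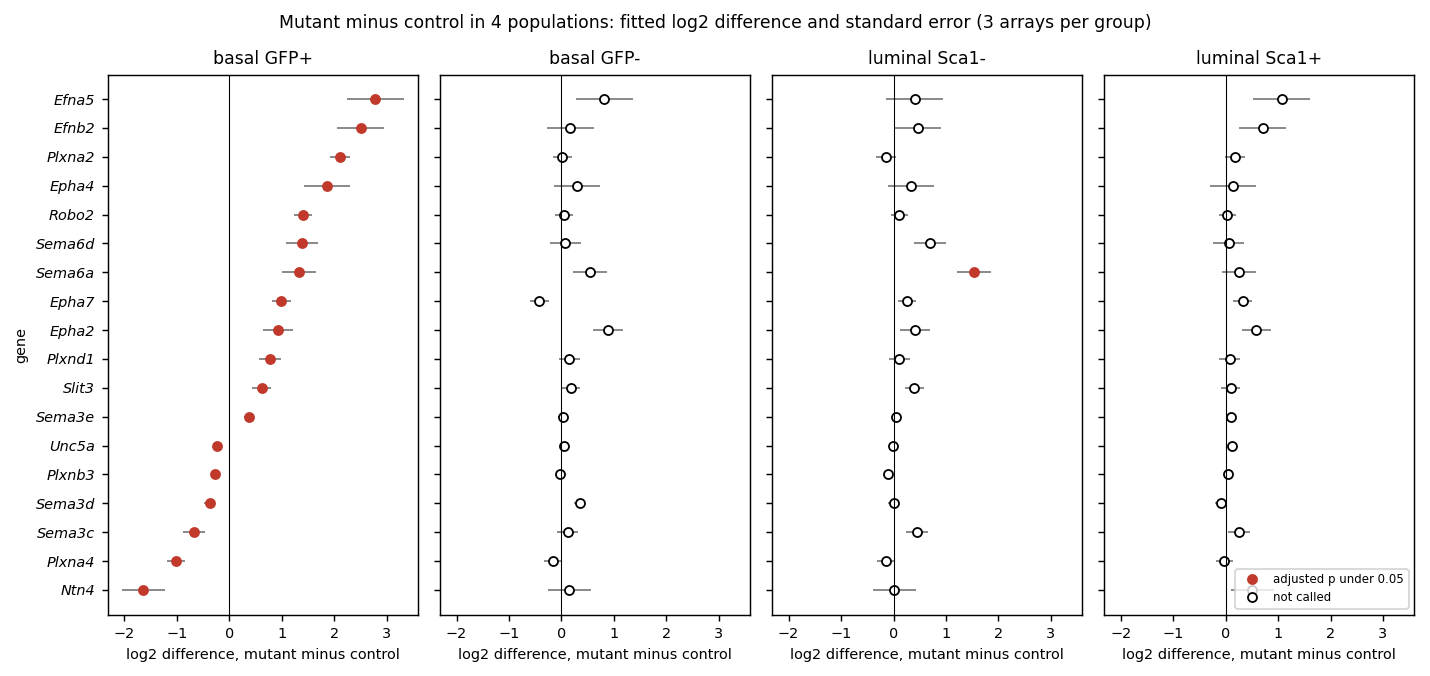
Fitted difference between mutant and control (log2, with SE) of the 18 guidance genes called in basal GFP-positive cells, in each of the 4 populations, with filled points where called. Plxna2 differs by 2.11 in basal GFP-positive cells and by 0.02 in basal GFP-negative cells, and Sema6a is also called in luminal Sca1-negative cells, at 1.53.

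Whether the difference between mutant and control cells, called the effect here, differed between populations was tested directly. In basal GFP-positive cells this effect takes in both the genotype and the change in which cells GFP marks. The effect in basal GFP-positive cells differed from that in basal GFP-negative cells for 4 guidance genes, 3 higher and 1 lower, against 1.07% of all genes (0.772% higher and 0.301% lower). They were Plxna2 (difference of effects 2.10 ± 0.26, adjusted p = 0.000245, limma), Epha7 (1.41 ± 0.26, 0.00891), Robo2 (1.36 ± 0.23, 0.00597) and Sema3d. The effect on Epha7 was 0.99 ± 0.18 in GFP-positive cells and −0.42 ± 0.18 in GFP-negative cells, the second of them not called. Sema3d was not above background in any group. In a fit of only the groups compared, Epha7 (adjusted p = 0.18), Robo2 (0.168) and Sema3d (0.205) lost the call, and Plxna2 kept it under every alternative run (adjusted p up to 0.0452). For Efnb2 the difference was 2.34 ± 0.63 with an adjusted p of 0.095, and for Efna5 it was 1.96 ± 0.77 with an adjusted p of 0.262. The effect in luminal Sca1-negative cells was lower than that in basal GFP-positive cells for Plxna2 (−2.25 ± 0.26, adjusted p = 0.0001) and Robo2 (−1.30 ± 0.23, 0.00821), against 1.03% of all genes (0.381% higher and 0.647% lower). Robo2 lost this call too when only the groups compared were fitted (adjusted p = 0.112). Under quantile scaling 4 genes were called in this last test, 2 higher and 2 lower. No guidance gene was called between the effects in the luminal populations, where limma called 0.161% of all genes (0.0803% higher and 0.0803% lower). In that test 4 guidance genes and 1422 of all 19937 genes had an unadjusted p under 0.05. Ntn1 came nearest there, since its values were higher in mutant Sca1-positive cells and lower in mutant Sca1-negative cells than in their controls (difference of effects 1.67 ± 0.35, adjusted p = 0.0832).

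The GFP gate was also compared within each genotype. In mutant basal cells 8 guidance genes were called in GFP-positive against GFP-negative cells, 6 higher and 2 lower, against 2.51% of all genes (1.77% higher and 0.737% lower), with 5 higher and 3 lower under quantile scaling. The medians were 0.03 over the guidance genes and −0.03 over all genes. Plxna2 had 7.17, 6.06 and 6.68 in GFP-positive arrays, against 4.32, 4.27 and 4.33 in GFP-negative arrays, a difference of 2.33 ± 0.19 (SE, adjusted p = 3.92e-07, limma). The groups were far apart, as they were for Efnb2 (2.27 ± 0.45, adjusted p = 0.00737), and Robo2 was at least 2.46-fold higher in GFP-positive cells (adjusted p = 6.91e-05). These are the same mutant GFP-positive arrays as in the comparison with controls. Sema3f had values of 8.21, 8.19 and 7.86 in GFP-positive arrays, against 6.36, 7.35 and 6.84 in GFP-negative arrays, a difference of 1.24 ± 0.30 (adjusted p = 0.0319). Its call was lost without GFP-positive replicate 1 (1.18, adjusted p = 0.122) or 2 (1.18, 0.115) or GFP-negative replicate 1 (0.99, 0.146) or 3 (1.24, 0.0766). The other calls were Epha7 (0.69 ± 0.18, adjusted p = 0.049), Sema3e (0.54 ± 0.09, 0.00174) and Sema3d, which was not above background. Sema3e was not above background in GFP-negative cells and was at least 1.08-fold higher in GFP-positive cells. Of 5 luminal markers, 2 were called lower in GFP-positive cells (median of the list −0.91), and their part in these results was not tested. The count of calls fell to 4 without GFP-positive replicate 1 or 2 and to 5 without GFP-negative replicate 2.

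Slit2 was above background only in the basal GFP-negative groups. It had values of 3.80, 3.92 and 3.85 in mutant GFP-positive arrays, against 6.77, 5.28 and 4.81 in mutant GFP-negative arrays. No GFP-positive array reached a GFP-negative one, and it was at least 2.68-fold lower in GFP-positive cells (adjusted p = 0.0389, limma). Leaving out GFP-negative replicate 1 ended the call (−1.19, adjusted p = 0.17), as did leaving out GFP-negative replicate 2 (−1.93, 0.0565) or GFP-positive replicate 1 (−1.73, 0.124), 2 (−1.79, 0.102) or 3 (−1.76, 0.0978). In control basal cells Slit2 had 4.17, 3.94 and 4.20 in GFP-positive arrays, against 6.84, 5.22 and 4.50 in GFP-negative arrays. The order was the same, but the difference of −1.41 ± 0.44 was not called (adjusted p = 0.119).

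In control basal cells 1 guidance gene was called in GFP-positive against GFP-negative cells, where 1.25% of all genes were called (0.507% higher and 0.747% lower), and the medians were 0.10 over the guidance genes and 0.05 over all genes. Plxna4 had values of 6.02, 5.64 and 6.07 in GFP-positive arrays, against 5.47, 5.0 and 4.78 in GFP-negative arrays, a difference of 0.83 ± 0.17 (SE, adjusted p = 0.0228, limma). The groups did not overlap, but the call was lost without GFP-positive replicate 1 (0.77, adjusted p = 0.0668) or 3 (0.75, 0.0723) or GFP-negative replicate 2 (0.79, 0.069) or 3 (0.68, 0.0678). The count of calls was 5 without control GFP-positive replicate 2 and 0 without replicate 3. The nearest other genes were Epha7 (−0.72 ± 0.18, adjusted p = 0.0589), Sema6d (−1.11 ± 0.30, 0.0759) and Ephb6 (1.15 ± 0.31, 0.0762).

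Within the luminal gate, Sca1-positive cells had 5 guidance genes called against Sca1-negative cells in control mice, 1 higher and 4 lower, against 3.69% of all genes (2.08% higher and 1.61% lower). In mutant mice 5 were called too, 1 higher and 4 lower, against 3.66% of all genes (1.81% higher and 1.85% lower). The medians were −0.09 and −0.00 over the guidance genes, against −0.04 and 0.00 over all genes. Efna5 and Efnb2, the ephrins of the mutant basal cells, were lower in Sca1-positive cells of both genotypes. Efna5 had values of 4.16, 4.41 and 4.30 in control Sca1-positive arrays, against 7.50, 7.19 and 6.92 in control Sca1-negative arrays, a difference of −2.91 ± 0.55 (SE, adjusted p = 0.00391, limma). It had values of 6.04, 5.33 and 4.71 in mutant Sca1-positive arrays, against 7.58, 7.60 and 7.63 in mutant Sca1-negative arrays, and its difference was −2.24 ± 0.55 (adjusted p = 0.0261). In neither genotype did the groups overlap. Efnb2 differed by −1.95 ± 0.45 (adjusted p = 0.0186) in control mice and −1.71 ± 0.45 (adjusted p = 0.0389) in mutant mice.

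Ntn1 had values of 5.42, 5.19 and 5.34 in control Sca1-positive arrays, against 8.41, 7.01 and 7.48 in control Sca1-negative arrays, and fell by 2.31 ± 0.25 (SE, adjusted p = 1.68e-05, limma). The groups were well apart in control mice, while in mutant mice the values were 6.49, 5.99 and 5.81 in Sca1-positive arrays and 6.60, 6.63 and 6.98 in Sca1-negative arrays, with no call. Plxnb2 averaged 8.62 ± 0.30 in control Sca1-positive and 7.26 ± 0.59 in control Sca1-negative cells (SD, n = 3 each, adjusted p = 0.0233). In mutant mice, Sema6a averaged 5.27 in Sca1-positive and 6.96 in Sca1-negative cells (difference −1.69 ± 0.33, SE, adjusted p = 0.00514). Robo1 was the gene that rose there, at 6.41, 5.31 and 5.63 in Sca1-positive arrays, against 4.52, 4.88 and 4.48 in Sca1-negative arrays (adjusted p = 0.0313). The basal marker list averaged 5.23 to 6.81 by array in mutant Sca1-positive cells and 6.76 to 7.43 in mutant Sca1-negative cells, and its part in the Sema6a result was not tested. Sema6d was at least 1.96-fold lower in mutant Sca1-positive cells (adjusted p = 0.0496). All 4 luminal progenitor markers were called lower in control Sca1-positive cells (median of the list −3.25), and the part of this difference in the guidance gene results was not tested either. Efna5 and Ntn1 in control mice and Sema6a in mutant mice kept their calls with each array left out in turn. With only the groups compared in the fit, Ntn1 (adjusted p = 0.0505) and Sema6a (0.0581) lost theirs. Counts were as low as 2 in control mice, without Sca1-negative replicate 3, and 1 in mutant mice, without Sca1-negative replicate 1 or 3 or Sca1-positive replicate 3. Efnb2 was not called in control mice without Sca1-negative replicate 3 (−1.71, adjusted p = 0.0788) or Sca1-positive replicate 1 (−1.91, 0.061) or 3 (−1.89, 0.0695), and in mutant mice Efna5 had adjusted p of 0.0741 to 0.149 without any 1 array but Sca1-positive replicate 1. Efnb2, Robo1 and Sema6d in mutant mice and Plxnb2 and Robo3 in control mice were lost as well when 1 array was left out (adjusted p up to 0.258).

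Genes that work with the guidance receptors were read from a pair of lists. The first held 50 intracellular effectors, 48 of them measured, and the second 39 extracellular or membrane partners, 38 of them measured. Between mutant and control basal GFP-positive cells, 4 effectors rose and 3 fell (median −0.03), and 6 partners rose and 2 fell (median 0.12). Of all genes 4.74% were higher and 7.81% lower, with a median of −0.10. Dpysl2, a collapsin response mediator that relays semaphorin signals to microtubules, averaged 5.55 in mutant and 7.73 in control cells, a difference of −2.19 (adjusted p = 0.00112, limma). Enah, an actin regulator of the Ena and VASP family, rose by 1.53 (adjusted p = 0.00112), and Abl1, a kinase of the Robo pathway, rose by 1.0 (adjusted p = 0.0171). Among the partners, Sdc1, a syndecan of the cell surface, rose by 2.06 (adjusted p = 0.0032), Flrt3, which binds Unc5 receptors and Robo1, by 2.03 (0.0034), Rgmb, a ligand of neogenin, by 1.31 (0.00592) and Vegfa, which binds neuropilins, by 0.88 (0.00901).

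In luminal Sca1-negative against basal GFP-negative cells of control mice, 3 effectors rose and 8 fell and 3 partners rose and 9 fell, where 9.83% of all genes were called, among them Dpysl3 (−3.36, adjusted p = 1.58e-07, limma) and Plxdc2, which has a plexin-like domain (−4.0, adjusted p = 3.69e-07). In Sca1-positive cells, 6 effectors rose and 11 fell and 7 partners rose and 7 fell, where 13.1% of all genes were called. In mutant luminal against basal GFP-positive cells, the effectors had 0 higher and 7 lower calls in Sca1-negative cells and 3 and 11 in Sca1-positive cells, and the partners had 4 and 12 and then 5 and 9, where 7.86% and 9.72% of all genes were called. Between GFP-positive and GFP-negative mutant basal cells, 3 effectors rose and 3 fell and 3 partners rose, where 2.51% of all genes were called, with a difference of −3.03 for Dpysl2 (adjusted p = 5.16e-05). Between mutant and control luminal Sca1-negative cells, Sh3kbp1, an adaptor protein, rose by 1.10 (adjusted p = 0.00335) and Plxdc2 by 2.59 (adjusted p = 0.000881), and in luminal Sca1-positive cells the partner Cd44 rose by 1.73 (adjusted p = 0.0128), where 0.727% and 0.777% of all genes were called. No gene of either list was called between mutant and control basal GFP-negative cells or between control basal GFP-positive and GFP-negative cells, where 0.0602% and 1.25% of all genes were called. In luminal Sca1-positive against Sca1-negative cells, 0 effectors rose and 5 fell and 4 partners rose and 2 fell in control mice, and 2 effectors rose and 3 fell and 3 partners rose and 4 fell in mutant mice, where 3.69% and 3.66% of all genes were called.

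The 36 guidance genes called in no comparison were not all low. Ephb3, a receptor of ephrin-B ligands, had group means of 6.67 to 8.15, Plxnb1 had 5.92 to 6.90, Sema4b had 5.59 to 6.08, Plxna3 had 5.10 to 5.67, Efna4 had 4.94 to 5.74 and Unc5b, a netrin receptor, had 4.67 to 5.43. Sema4a had the widest range among these, 5.49 in control basal GFP-positive to 7.51 in control luminal Sca1-positive cells. Dcc, the classical netrin receptor, stayed at 4.17 to 4.46. Of the genes that were called, 4 were never above background in any group (Plxnb3, Robo3, Sema3d and Unc5a), and their differences were between 0.24 and 0.48 in size.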

How the data were processed

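RNA from the 24 samples was hybridised to Affymetrix mouse Gene 1.0 ST arrays. The deposited values are log2 signals per probe set, per the file's values, and the submitters' processing notes name affy, with no version or role. The background correction, normalization and summarization are not given in the sources used here, so all 24 columns were used on the deposited log2 scale. The platform annotation gave 1 symbol for 21640 of 34760 probe sets, several for 1321 and none for 11799. By Entrez identifier, 21553 were matched to the RefSeq table of GRCm38.p6, and 0 symbols changed. Genes with several probe sets, 954 in all, were taken at the probe set with the highest mean, which gave 19937 genes.

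One limma model (version 3.58.1, R 4.3.3) with 8 group means and 16 residual degrees of freedom was fitted to all genes, and its p-values were adjusted by Benjamini-Hochberg within each comparison. They rest on the spread between arrays of a group, taken over all 8 groups. Differences between pools of mice, between sorts, in the 250 cells sampled and in amplification cannot be told apart in it. The number of arrays limits the precision: an exact two-sided permutation test of 3 arrays against 3 cannot go below 0.1. In simulated data, 200 of 19937 genes were changed in the tested group, with normal noise of the same spread in every group. There, 56% to 69% of genes changed by 1 on the log2 scale and 83% to 97% of those changed by 2 were recovered over the 12 comparisons. The share of changed genes and the spread by group can differ in the real data, so these are not the shares recovered there. Members called in a comparison are named, with array values for the 5 largest differences each way where over 10 were called, and the others are named by level. Of each pathway list, up to 4 called genes per comparison were named. The guidance genes, the pathway lists and the marker lists were chosen with earlier results of these data known. Alternatives tried were quantile normalization, a filter on dim genes, averaged probe sets, a fit of the compared groups alone, a fit without the control basal GFP-positive arrays, another control group, replicate numbers as a block, and each array left out in turn.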

Additional observations from a re-analysis of the deposited data

Results flagged for a closer look

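In 4 guidance genes the fitted effect (log2, mutant minus control) differed between basal GFP-positive and basal GFP-negative cells by limma's test of the difference itself. GFP does not mark the same basal cells in mutant and control mice. The difference, GFP-positive minus GFP-negative, was 2.10 for Plxna2 (adjusted p = 0.000245), 1.41 for Epha7 (0.00891), 1.36 for Robo2 (0.00597) and −0.72 for Sema3d (0.025). In a fit of only the groups compared, Epha7 (adjusted p = 0.18), Robo2 (0.168) and Sema3d (0.205) were no longer called. Sema3d was not above background in any of the 8 groups, and its call was lost without mutant GFP-negative replicate 2 (adjusted p = 0.0675), mutant GFP-positive replicate 1 (0.0641) or control GFP-negative replicate 1 (0.056).

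The effect also differed between luminal Sca1-negative and basal GFP-positive cells in 2 genes. The difference, luminal minus basal, was −2.25 for Plxna2 and −1.30 for Robo2, and Robo2 was no longer called in a fit of only the groups compared (adjusted p = 0.112). The mutant effect on Plxna2 was −0.14 ± 0.19 (SE) in luminal Sca1-negative and 2.11 ± 0.19 in basal GFP-positive cells, and the mutant effect on Robo2 was 0.11 ± 0.17 and 1.41 ± 0.17. Both sets of differences use the same mutant and control basal GFP-positive arrays.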

How the results depend on the processing

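The 123 calls of guidance genes were recomputed 1498 times under the alternatives: 1209 kept direction and call, 289 kept direction only, and 0 changed direction. The count of called genes moved by over 1.5 times mainly when only the compared groups were fitted. Such a fit estimates the spread from fewer arrays and from those groups alone, and what moved the counts was not tested. Mutant against control then gave 1 call in basal GFP-positive cells and 0 in luminal Sca1-negative cells. GFP-positive against GFP-negative cells gave 0 in control and 4 in mutant mice, and control luminal Sca1-positive against basal cells gave 9. Sca1-positive against Sca1-negative cells gave 2 calls in control and 2 in mutant mice, and each difference of mutant effects with calls gave 1. Against control basal GFP-negative cells, mutant basal GFP-positive cells had 10. With quantile normalization, the difference of effects between luminal Sca1-negative and basal GFP-positive cells gave 4. With each array left out in turn, mutant against control had 10 to 26 calls in basal GFP-positive, 0 to 0 in basal GFP-negative, 0 to 1 in luminal Sca1-negative and 0 to 1 in luminal Sca1-positive cells. GFP-positive against GFP-negative had 0 to 5 in control and 4 to 8 in mutant mice. Luminal against basal had 11 to 16 and 15 to 22 in control mice (Sca1-negative, then Sca1-positive) and 15 to 19 and 16 to 20 in mutant mice. Sca1-positive against Sca1-negative had 2 to 5 in control and 1 to 3 in mutant mice. The differences of effects had 3 to 6 (basal GFP-positive minus GFP-negative), 0 to 1 (luminal populations) and 2 to 3 (luminal Sca1-negative minus basal GFP-positive). Arrays of the same replicate number correlated at −0.08 to 0.18 in their deviations from group means, and in 0 of 12 comparisons did every pair exceed 0.1, so the numbers were not taken to pair the arrays. Each array was most like its own number in 7 of 12. With a replicate block, 2 genes were called between control basal GFP-positive and GFP-negative cells and 17 between mutant and control basal GFP-positive cells, and counts elsewhere stayed within 1.5 times. Dim signals, near a background of 4.20 to 4.39, limit what can be read from the 13 genes never above it.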
